A study of Mus musculus with 20 samples.

Results

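Genes of alkaline phosphatase and tissue mineralization were followed by RNA sequencing in sorted stromal progenitors of mouse visceral fat. The set holds 10 genes, Alpl, Enpp1, Ank, Spp1, Mgp, Runx1, Runx2, Sp7, Bglap and Ibsp, picked by symbol from the 54304 genes of the table. Alpl and Spp1 were included because they had been seen to differ between groups in these same libraries. The contrasts in which they were seen to differ are not stated, so all values of Alpl and Spp1 are given as a description, without a test. The other 8 genes came with them as genes of the same process. Of the 10, 7 were above 0 in at least 5 libraries and entered the fit, and 5 of these (Enpp1, Ank, Mgp, Runx1 and Runx2) are tested here. Sp7, Bglap and Ibsp were listed at 0 in all 20 libraries.

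The libraries came from gonadal white fat of male mice and formed 4 groups of 5. Fibro-inflammatory progenitors (FIPs) were sorted as PDGFRβ-positive cells with LY6C on their surface, and adipogenic precursor cells (APCs) as PDGFRβ-positive cells with neither LY6C nor CD9. Both sorts left out cells with CD45 (blood cells) or CD31 (endothelium). Each population was taken from Mural-Zfp423 transgenic mice, a line named for the transcription factor Zfp423 in mural cells of small vessels, and from controls. All mice, controls too, were given as 8 weeks old, were housed at 30 °C and ate a diet with 60% of calories from fat for 1 month. Each library pooled RNA of 2 of the 10 mice per genotype. Some mice therefore gave both a FIP and an APC pool, and all did if each was used once per population. Which pools these are is not stated. The labels do not give the promoter that drives the transgene or the full genotype of the controls.

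Mineral forms where phosphate outweighs its inhibitor, inorganic pyrophosphate. Tissue-nonspecific alkaline phosphatase, the product of Alpl, splits pyrophosphate, Enpp1 makes it outside the cell from ATP, and Ank is needed for its release from the cell. Osteopontin (Spp1) and matrix Gla protein (Mgp) are secreted proteins that restrain crystal growth, and osteopontin also binds integrins and CD44 and is made by macrophages of obese fat. Runx2 and Sp7 are the transcription factors of bone-forming osteoblasts, Runx1 is their relative best known from blood formation, and Bglap (osteocalcin) and Ibsp (bone sialoprotein) are proteins of bone matrix. Stromal progenitors of fat can take an osteoblast path in culture, and alkaline phosphatase is widely used as an early sign of it.

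Promoter sequences are shown for Alpl, Enpp1 and Spp1, since they show the widest differences among the 10 genes, and were searched for TGTGGT, the core letters bound by RUNX proteins, on both strands (ACCACA on the other). They are the 250 bases before each start from RefSeq on GRCm38.p6, read 5′ to 3′ on the strand of the gene, with matches in capitals. Alpl has 2 annotated starts, at chr4:137796385-137796634 and, further into the gene, chr4:137766476-137766725, both on the minus strand. Enpp1 is at chr10:24712160-24712409 on the minus strand, and the upstream start of Spp1 at chr5:104434861-104435110 on the plus strand.
Alpl, first start: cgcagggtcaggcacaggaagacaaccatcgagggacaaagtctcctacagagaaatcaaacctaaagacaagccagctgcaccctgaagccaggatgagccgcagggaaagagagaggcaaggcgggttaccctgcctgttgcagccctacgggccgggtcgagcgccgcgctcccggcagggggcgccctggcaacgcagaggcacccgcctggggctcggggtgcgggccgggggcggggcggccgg
Alpl, second start: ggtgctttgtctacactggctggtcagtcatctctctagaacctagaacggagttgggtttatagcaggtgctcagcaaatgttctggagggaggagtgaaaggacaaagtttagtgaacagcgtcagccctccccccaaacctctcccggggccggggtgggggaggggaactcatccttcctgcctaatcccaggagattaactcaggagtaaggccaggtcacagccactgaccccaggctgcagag
Enpp1: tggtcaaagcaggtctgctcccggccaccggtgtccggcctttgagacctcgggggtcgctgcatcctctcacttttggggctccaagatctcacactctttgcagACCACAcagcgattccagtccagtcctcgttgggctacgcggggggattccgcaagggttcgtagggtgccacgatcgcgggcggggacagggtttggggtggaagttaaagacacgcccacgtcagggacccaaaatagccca
Spp1, first start: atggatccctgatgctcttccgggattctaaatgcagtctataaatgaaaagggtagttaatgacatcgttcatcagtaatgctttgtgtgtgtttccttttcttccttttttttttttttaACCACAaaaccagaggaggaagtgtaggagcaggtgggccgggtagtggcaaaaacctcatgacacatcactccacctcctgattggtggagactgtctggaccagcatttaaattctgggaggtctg
The 2 Alpl windows held no match. The Enpp1 window held 1 match, beginning at position −144 from the start, and the Spp1 window held 1, at position −128. The motif lies in 14% (4614) of all 32851 promoter windows of this length in the table. Among the 11 windows found for 8 of the 10 genes, 4 held it, those of Enpp1, Spp1 (first start), Runx2 and Bglap. GC content was 68.4% in the first Alpl window, 56.0% in the second, 61.2% in the Enpp1 window and 43.6% in the Spp1 window. The table gives 1 value per gene, so use of the separate starts was not measured.

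Values are log2 CPM (reads of a gene scaled to the library total), as deposited, with 1 CPM or less listed as 0. Read depth, worked out from the step between low values, was 6.6 to 8.5 megareads per library, so that 1 CPM was about 6.6 to 8.5 reads. Across all genes, limma called 7275 of 17435 genes between FIPs and APCs in transgenic mice and 8288 in controls, but 65 between genotypes in FIPs and 1396 in APCs. Zfp423 itself stood at 5.47 to 5.58 log2 CPM in transgenic FIPs and 5.30 to 5.63 in control FIPs, and at 4.47 to 5.16 in transgenic APCs and 4.72 to 5.21 in control APCs. Transgenic and control ranges overlapped in both populations, so every genotype direction here rests on the labels, and "transgenic" means labelled so. The sort was visible in the RNA: 6 of 6 FIP markers (Ly6c1, Ly6c2, Cd9, Cd55, Dpp4, Pi16) were higher in FIPs than in APCs in both genotypes, and 4 of 4 preadipocyte markers (Pparg, Fabp4, Lpl, Cd36) were lower. The first 3 of the FIP markers are gate genes and no finding.

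Alpl (ENSMUSG00000028766, chromosome 4, 137741733 to 137796384, minus strand, GRCm38) was higher in transgenic than in control libraries of both populations, and lower in FIPs than in APCs of both genotypes. In FIPs it had 5.48, 5.32, 5.53, 5.40 and 5.30 log2 CPM in transgenic libraries, against 4.76, 4.77, 4.57, 4.84 and 4.88 in controls. In APCs it had 6.45, 6.58, 6.63, 6.50 and 6.57 log2 CPM in transgenic libraries, against 5.88, 6.09, 6.07, 6.30 and 6.10 in controls. Neither pair of genotype groups overlapped (2.89% of all genes tested did not in FIPs and 2.92% in APCs), and the 4 groups stood in 4 separate bands, from control FIPs at the bottom to transgenic APCs at the top. In FIPs the mean was 5.41 ± 0.10 log2 CPM in transgenic and 4.76 ± 0.12 in control libraries (SD, n = 5 each), a difference of 0.64 or 1.56-fold. In APCs it was 6.55 ± 0.07 in transgenic and 6.09 ± 0.15 in control libraries, a difference of 0.46 or 1.37-fold. The genotype difference was 0.18 log2 units larger in FIPs than in APCs, but 0.07 when each library was centred on its median. Between the populations, FIPs minus APCs came to −1.14 log2 units in transgenic mice and −1.32 in controls. In bulk RNA, fewer cells with a transcript and less of it per cell cannot be told apart, here and for all genes below.

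Other cells known to carry alkaline phosphatase were followed through markers. Of 8 neutrophil markers, 6 (S100a8, S100a9, Ngp, Camp, Ltf and Retnlg) were listed at 0 in every library. Of the other 2, Mmp9, a secreted protease, averaged 2.99 log2 CPM in transgenic and 3.12 in control FIPs, and 3.96 in transgenic and 4.19 in control APCs. Like Alpl it was lower in FIPs than in APCs (−0.97 in transgenic mice and −1.07 in controls; limma adjusted p = 0.000286 and 0.000111). Csf3r, the receptor of a granulocyte growth factor, was above 0 in 11 libraries. It averaged 0.16 log2 CPM in transgenic and 0.24 in control FIPs, and 0.45 in transgenic and 1.15 in control APCs. It passed the filter only through its APC libraries, so its lower level in FIPs of controls (−0.91) is no finding. The 10 endothelial markers summed to 618 to 802 CPM in transgenic FIPs and 549 to 701 in control FIPs, and to 517 to 704 CPM in transgenic APCs and 614 to 798 in control APCs. Their median genotype difference was 0.33 log2 units in FIPs, with 0 of 10 called in limma and 7 at an unadjusted p under 0.05, and −0.25 in APCs, with 1 of 10 lower. Mural markers, also 10, had a median of 0.31 in FIPs with 0 called and 4 at an unadjusted p under 0.05, and −0.26 in APCs with 1 lower. The medians of both lists were above 0 in FIPs and below 0 in APCs. Alpl was higher in transgenic libraries of both populations. Over all genes limma called 0.373% between genotypes in FIPs and 8.01% in APCs. Between FIPs and APCs most of these markers were lower in FIPs of controls, as Alpl was. There limma called 19% of all genes lower in FIPs of transgenic mice and 27.9% in controls. Of the 10 mural markers, 6 were lower in FIPs of transgenic mice (median −0.45) and 10 in controls (median −0.99). Of the 10 endothelial markers, 0 were lower and 1 was higher in FIPs of transgenic mice (median 0.00), and 9 were lower and 1 was higher in controls (median −0.62). The higher one was Tek, the most abundant of the list at 8.02 log2 CPM in transgenic and 8.06 in control FIPs. The sums therefore show the lower values of the others only in part, with medians of 665 CPM in control FIPs and 736 in control APCs. The part of any of these lists in the Alpl values was not tested.

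Over the 20 libraries, the genes whose log2 CPM followed Alpl most closely, among 12362 compared, were Elmod3 (Pearson r = 0.970), Gpc4 (0.970) and Bmp4 (0.969). Bmp4 encodes a bone morphogenetic protein and Gpc4 a cell-surface heparan sulfate proteoglycan. Bmp4 averaged 4.24 log2 CPM in transgenic and 3.57 in control FIPs, and 5.87 in transgenic and 5.27 in control APCs. With group means removed, r fell to 0.19 for Bmp4, 0.34 for Gpc4 and 0.57 for Elmod3, so the likeness was mostly one of group means. The points share libraries, depth and, in part, mice.

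**Figure D1:**
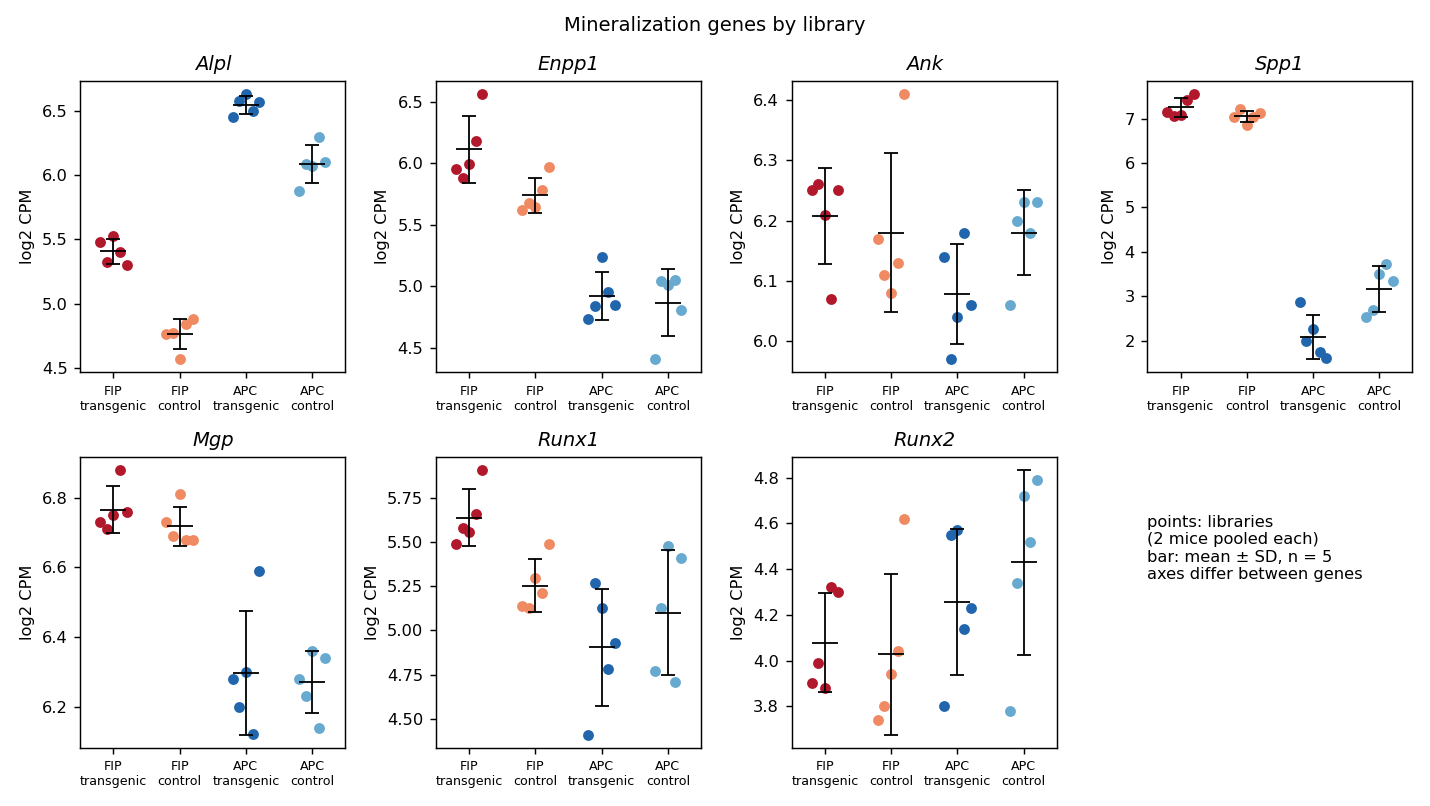
Log2 CPM of the 7 detected genes in each library (points), with mean and SD of each group (n = 5 libraries of 2 pooled mice), FIPs left and APCs right, transgenic beside control; axes differ between genes. Alpl stands in 4 separate bands, Spp1 separates FIPs (6.86 to 7.55) from APCs (1.6 to 3.73), and Ank varies little.

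Enpp1, the ectoenzyme that makes pyrophosphate (ENSMUSG00000037370, chromosome 10, 24637914 to 24712159, minus strand), was higher in FIPs than in APCs, opposite to Alpl. In transgenic mice it had 5.95, 5.88, 5.99, 6.18 and 6.56 log2 CPM in FIPs, against 4.73, 4.84, 5.24, 4.95 and 4.85 in APCs. In controls it had 5.62, 5.68, 5.64, 5.78 and 5.97 in FIPs, against 4.41, 5.04, 5.01, 5.05 and 4.81 in APCs. FIPs and APCs did not overlap in either genotype. The difference was 1.19 (SE 0.13) in transgenic mice and 0.87 (SE 0.13) in controls, 2.28-fold and 1.83-fold (limma, Benjamini-Hochberg adjusted p = 2.25e-07 and 1.59e-05). Between genotypes Enpp1 did not pass. In FIPs it averaged 6.11 ± 0.27 log2 CPM in transgenic and 5.74 ± 0.14 in control libraries (difference 0.37, 95% confidence interval 0.10 to 0.65, limma adjusted p = 0.261), and the groups overlapped. In APCs it averaged 4.92 ± 0.19 in transgenic and 4.86 ± 0.27 in control libraries (difference 0.06, interval −0.21 to 0.33, limma adjusted p = 0.841).

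Ank, the membrane protein of pyrophosphate release (ENSMUSG00000022265, chromosome 15, 27466677 to 27594909, plus strand), varied little. It lay between 5.97 and 6.41 log2 CPM in all 20 libraries, and all groups compared overlapped. FIPs minus APCs gave 0.13 in transgenic mice (interval 0.01 to 0.25, limma adjusted p = 0.0797) and 0.00 in controls (interval −0.12 to 0.12). The genotype difference was 0.03 in FIPs (interval −0.09 to 0.15) and −0.10 in APCs (interval −0.22 to 0.02). These intervals reach at most 0.25 log2 units from 0.

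With both genes scaled to exon length, Alpl outweighed Enpp1 in every library, by little in FIPs and by much in APCs. In FIPs this order rests on the scaling, since unscaled Enpp1 was the higher in every FIP library. Unscaled ranges were 5.88 to 6.56 log2 CPM for Enpp1 and 5.30 to 5.53 for Alpl in transgenic FIPs, and 5.62 to 5.97 and 4.57 to 4.88 in control FIPs. The lengths join all annotated exons (4033 bases for Alpl, 10257 for Enpp1), and the transcripts present may be shorter. The log2 ratio of Alpl to Enpp1 was 0.88, 0.79, 0.89, 0.57 and 0.09 in transgenic FIPs and 0.49, 0.44, 0.28, 0.41 and 0.26 in control FIPs. It was 3.07, 3.09, 2.74, 2.90 and 3.07 in transgenic APCs and 2.82, 2.40, 2.41, 2.60 and 2.64 in control APCs. FIPs and APCs stood far apart on this ratio, while transgenic and control libraries overlapped in each population. The mean corresponds to a ratio of 1.56 in transgenic FIPs, 1.29 in control FIPs, 7.84 in transgenic APCs and 5.94 in control APCs. The ratio holds Alpl, so it too is a description without a test, and it is one of messenger RNA and not of enzyme activity.

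Spp1, which encodes osteopontin (ENSMUSG00000029304, chromosome 5, 104435118 to 104441050, plus strand), separated the populations more than any other of the 10 genes. In transgenic mice it had 7.15, 7.05, 7.08, 7.43 and 7.55 log2 CPM in FIPs, against 2.86, 1.99, 2.26, 1.74 and 1.6 in APCs. In controls it had 7.04, 7.21, 6.86, 7.03 and 7.12 in FIPs, against 2.53, 2.69, 3.51, 3.73 and 3.35 in APCs. FIPs stood far above APCs in both genotypes, by 5.16 log2 units (35.8-fold) in transgenic mice and 3.89 (14.8-fold) in controls. In FIPs the genotypes overlapped, at 7.25 ± 0.22 in transgenic and 7.05 ± 0.13 in control libraries. In APCs Spp1 averaged 2.09 ± 0.50 in transgenic and 3.16 ± 0.52 in control libraries (n = 5 each), a difference of −1.07 log2 units, with 4 of 5 transgenic libraries below all controls and replicate 1 among them. On the linear scale these APC means were 4.48 CPM in transgenic and 9.42 CPM in control libraries, while FIPs averaged 153.9 CPM in transgenic and 133.1 CPM in control libraries.

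In the same APC libraries, markers of several cell types were lower in transgenic mice too. All 6 FIP markers were lower in limma, which called 5.91% of all genes lower here (median −0.53, against −0.03 over all genes tested). Among them were Pi16 by −0.74 (adjusted p = 0.00196) and Cd9 by −0.65 (adjusted p = 0.00163). Summed, the 6 markers came to 190.0 to 220.0 CPM in transgenic APCs and 253 to 301 CPM in control APCs. In FIPs they came to 1280 to 1390 CPM in transgenic and 1380 to 1500 CPM in control libraries. Of 16 macrophage markers, 9 were lower in transgenic APCs and 7 did not pass (median −0.74), and their sum was 374 to 499 CPM in transgenic and 499 to 688 CPM in control APCs. In FIPs the macrophage sum was 375 to 484 CPM in transgenic and 419 to 641 CPM in control libraries, which overlapped the APCs of the same genotype. These sums hold Gpnmb, the most abundant of the list. It averaged 7.46 log2 CPM in transgenic and 7.41 in control FIPs, and 7.32 in transgenic and 7.24 in control APCs. Its mean was not lower in transgenic libraries, so the sums show the lower values of the other markers only in part. Between FIPs and APCs 0 of 16 macrophage markers were higher and 1 was lower in each genotype. Of all genes, limma called 41.7% between FIPs and APCs in transgenic mice and 47.5% in controls. In APCs, 5 of 5 erythroid markers (median −0.95), 3 of 4 adipocyte markers (median −0.56) and 2 of 8 mesothelial markers (median −0.81) were also lower in transgenic mice in limma, so the lower values were not particular to markers of FIPs and macrophages. Calls in this comparison depend on the fit and the scaling. In the fit of APCs alone limma called 0 genes. With centred libraries 62.6% of the calls over all genes were higher, against 26.2% as deposited. The part of any of these lists in the APC difference of Spp1 was not tested.

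The genes closest to Spp1 over the 20 libraries were Arnt2 (r = 0.993), Pi16 (0.992), Limch1 (0.991) and Sfrp4 (0.991), again out of 12362. Pi16 is a marker of adventitial fibroblasts and Sfrp4 a secreted Wnt modulator with a role in bone. Their likeness remained in part with group means removed (r = 0.74 for Arnt2, 0.62 for Pi16, 0.66 for Limch1 and 0.69 for Sfrp4). Sfrp4 averaged 7.45 log2 CPM in transgenic and 7.71 in control FIPs, and 2.95 in transgenic and 3.74 in control APCs. Ibsp, which lies 123.6 kb from Spp1 on chromosome 5, was listed at 0 in every library.

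Mgp, the calcification inhibitor of cartilage and vessel walls (ENSMUSG00000030218, chromosome 6, 136872435 to 136875823, minus strand), was modestly higher in FIPs. In transgenic mice it had 6.73, 6.71, 6.75, 6.88 and 6.76 log2 CPM in FIPs, against 6.28, 6.2, 6.30, 6.12 and 6.59 in APCs. In controls it had 6.73, 6.69, 6.81, 6.68 and 6.68 in FIPs, against 6.28, 6.23, 6.36, 6.14 and 6.34 in APCs. FIPs lay above APCs in both genotypes with no overlap. The difference was 0.47 (SE 0.06) in transgenic mice and 0.45 (SE 0.06) in controls, 1.38-fold and 1.36-fold (limma adjusted p = 5.26e-06 and 1.03e-05). The genotype difference was 0.05 in FIPs (interval −0.09 to 0.18) and 0.03 in APCs (interval −0.11 to 0.16), and neither passed.

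Runx1 (ENSMUSG00000022952, chromosome 16, 92601466 to 92826149, minus strand) was higher in FIPs of transgenic mice. There it had 5.49, 5.58, 5.56, 5.66 and 5.91 log2 CPM in FIPs, against 4.41, 5.27, 5.13, 4.78 and 4.93 in APCs, with no overlap and a difference of 0.74 (SE 0.15, 1.67-fold, limma adjusted p = 0.00052). In controls it had 5.14, 5.13, 5.30, 5.21 and 5.49 in FIPs, against 4.77, 5.13, 5.48, 4.71 and 5.41 in APCs. These groups overlapped, and the difference of 0.15 (interval −0.16 to 0.47) did not pass (limma adjusted p = 0.43). The difference between the 2 contrasts, the interaction, was 0.58 (SE 0.22) and did not pass either (limma adjusted p = 0.268). In FIPs Runx1 averaged 5.64 ± 0.16 log2 CPM in transgenic and 5.25 ± 0.15 in control libraries. The difference of 0.39 (interval 0.07 to 0.70) did not pass (limma adjusted p = 0.349). There 4 of 5 transgenic libraries lay above all controls, and the other tied with the highest control at 5.49. In APCs Runx1 averaged 4.90 ± 0.33 in transgenic and 5.10 ± 0.35 in control libraries, a difference of −0.20 that did not pass.

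Runx2, the osteoblast factor (ENSMUSG00000039153, chromosome 17, 44495987 to 44814797, minus strand), did not pass in any comparison. It averaged 4.08 ± 0.22 log2 CPM in transgenic and 4.03 ± 0.35 in control FIPs, and 4.26 ± 0.32 in transgenic and 4.43 ± 0.40 in control APCs (n = 5 each), and all groups overlapped. FIPs minus APCs gave −0.18 in transgenic mice (interval −0.58 to 0.22) and −0.40 in controls (interval −0.80 to −0.01, limma adjusted p = 0.0888). Without replicate 1 of the control APCs the control difference was −0.56 and passed (adjusted p = 0.0113), and without replicate 5 of the control FIPs it was −0.55 and passed (adjusted p = 0.0181). With the replicate number as a block it stayed at −0.40 and passed in limma (adjusted p = 0.0302). That block joins same-numbered libraries of both genotypes, which are different mice, so it does not pair pools of the same mice. Antisense genes are annotated within Runx1 and Runx2 (Gm26626; Runx2os1, Runx2os2 and Runx2os3). They were listed at 0, but the strand setting of the counting is not given. Protein-coding genes with reads also lie on the opposite strand. Supt3, which overlaps Runx2, reached 3.87 log2 CPM, and Otulin, which overlaps Ank, reached 4.67. Neither shares exon bases with the gene it overlaps.

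Among the 5 tested genes, 3 (Enpp1, Mgp and Runx1) were called between FIPs and APCs of transgenic mice, where limma called 41.7% of all genes (22.7% higher and 19% lower in FIPs), and 2 (Enpp1 and Mgp) in controls, where it called 47.5% (19.6% higher and 27.9% lower). All were higher in FIPs. The same genes were those without overlap, against 29% of all genes in transgenic mice and 31.4% in controls. With 5 genes these counts are near the background, so the count by itself says nothing particular about the 5 genes. Between genotypes 0 of 5 were called in FIPs, where limma called 0.373% of all genes (0.241% higher and 0.132% lower), and 0 of 5 in APCs, where it called 8.01% (2.1% higher and 5.91% lower). None of the 5 was free of overlap between genotypes, as 2.89% of all genes were in FIPs and 2.92% in APCs. Unadjusted p was under 0.05 for Enpp1 and Runx1 in FIPs and for none of the 5 in APCs. For the interaction of genotype and cell type limma called 0% of all genes (0 of 17435, with 2388 at an unadjusted p under 0.05), and of the 5 genes only Runx1 had an unadjusted p under 0.05.

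**Figure D2:**
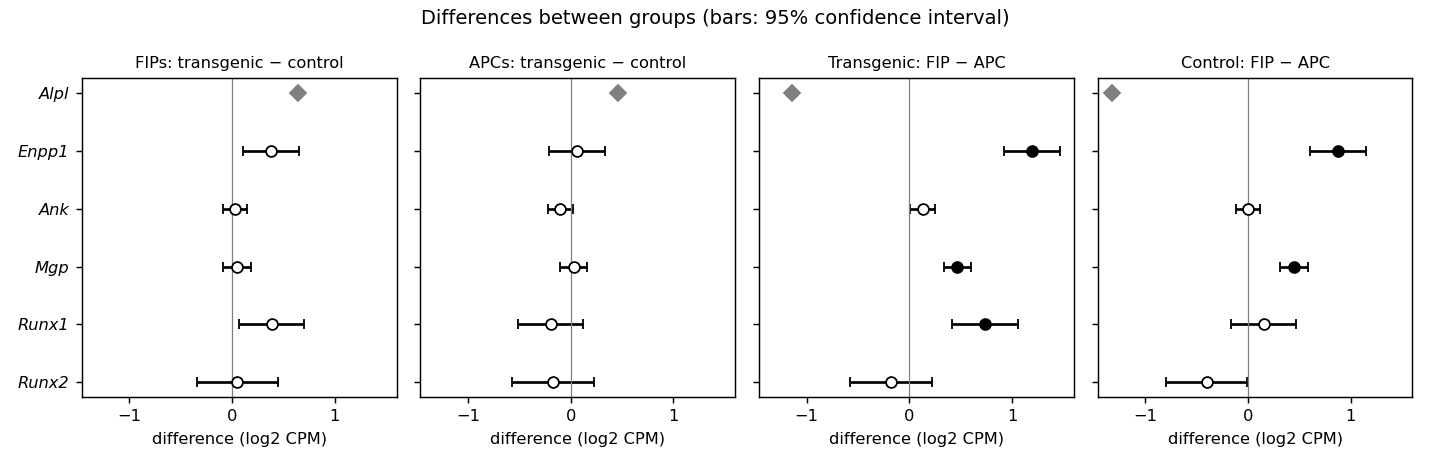
Differences in log2 CPM for 6 genes in the 4 comparisons, with 95% confidence intervals from limma for the 5 tested genes (filled where called at an adjusted p of 0.05) and a grey diamond without interval for Alpl. Spp1 is left out for its scale; Alpl and Enpp1 lie on opposite sides of 0 between FIPs and APCs.

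Scaled to exon length, Mgp led in APCs, at 6.05 ± 0.18 log2 CPM per kb in transgenic and 6.02 ± 0.09 in control libraries. In FIPs Spp1 (6.53 ± 0.22) and Mgp (6.52 ± 0.07) stood together at the top in transgenic libraries and overlapped, as did Mgp (6.47 ± 0.06) and Spp1 (6.33 ± 0.13) in control libraries. Ank followed at 4.36 in transgenic and 4.33 in control FIPs. Then came Alpl (3.39 in transgenic and 2.75 in control FIPs), Enpp1 (2.75 in transgenic and 2.38 in control FIPs), Runx1 (2.05 in transgenic and 1.67 in control FIPs) and Runx2 (0.93 in transgenic and 0.88 in control FIPs); of these neighbours only Alpl and Enpp1 in control FIPs overlapped. In APCs Alpl and Ank came after Mgp, with Alpl above Ank without overlap in transgenic libraries (4.53 against 4.23) and overlapping it in controls (4.08 against 4.33). The lower 4 genes, Enpp1, Spp1, Runx1 and Runx2, were not separable from their neighbours in APCs of either genotype. These orders depend on the lengths used, and unscaled Enpp1 lay above Alpl in every FIP library.

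**Figure D3:**
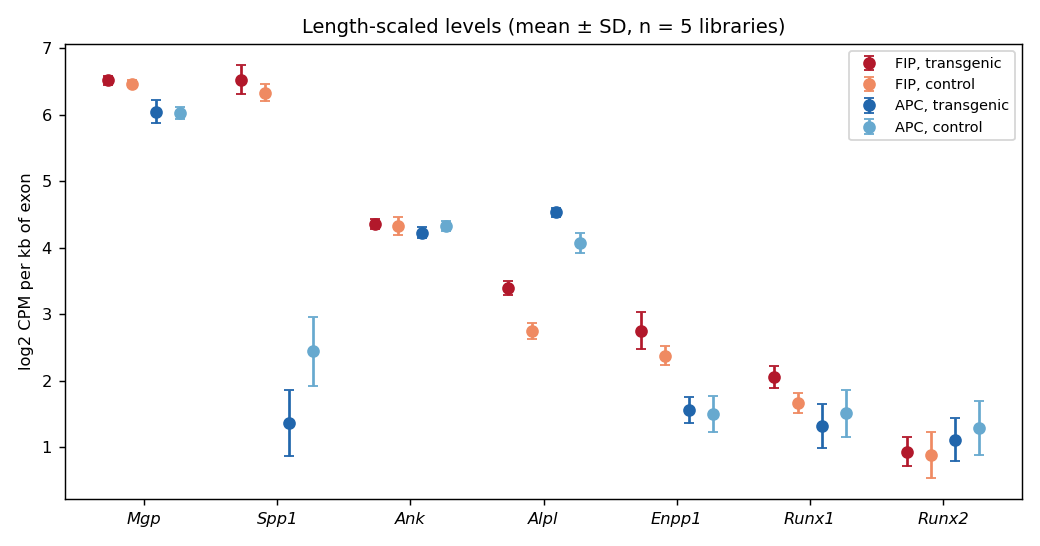
Length-scaled levels (log2 CPM per kb of annotated exon, mean ± SD, n = 5 libraries) of the 7 detected genes in the 4 groups. Mgp is at or beside the top in every group, Spp1 is far higher in FIPs than in APCs, and Alpl is higher in APCs (4.53 transgenic, 4.08 control) than in FIPs (3.39 and 2.75).

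Sp7, Bglap and Ibsp were listed at 0 in all 20 libraries, which means 1 CPM or less, about 6.6 to 8.5 reads at these depths. Bglap has near-identical neighbours, and reads that fit several copies may be lost or split by counting. Bglap2 was listed at 0 throughout and Bglap3 was above 0 in 3 libraries. A zero here is a level below the listing limit and not proof of absence.

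Within groups, Runx1, Runx2 and Enpp1 went up and down together from library to library. After group means were removed, Runx1 and Runx2 correlated over the 20 libraries with Pearson r = 0.80 (Spearman rho = 0.79; r = 0.76 without the 2 libraries farthest from the median). Enpp1 and Runx2 gave r = 0.72 (rho = 0.69; 0.64 without 2 libraries) and Enpp1 and Runx1 r = 0.51 (rho = 0.50; 0.35 without 2 libraries). Those were the 3 pairs of 21 above 0.5, and the range over all pairs was −0.26 to 0.80. Alpl and Spp1 gave r = 0.27 (rho = 0.15; −0.14 without 2 libraries). Replicate 5 was the highest for Runx1 and Enpp1 in FIPs of both genotypes, and replicate 1 was the lowest for Runx2 and Enpp1 in APCs of both. The points share depth and some mice, and no cause was tested.

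**Figure D4:**
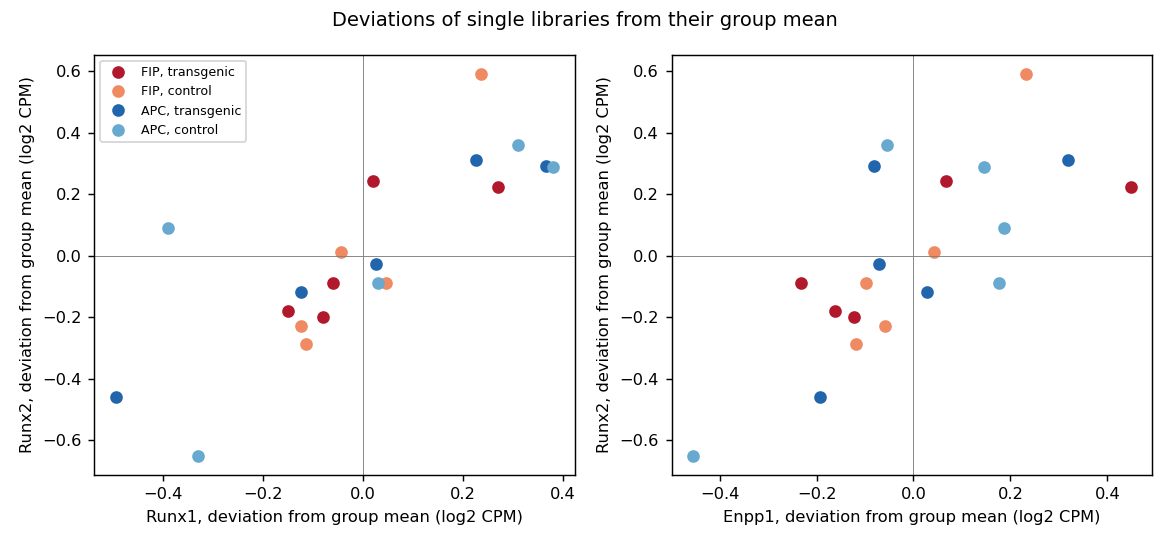
Deviation of each library from its group mean (log2 CPM) for Runx1 against Runx2 (left) and Enpp1 against Runx2 (right), n = 20 libraries coloured by group. Both clouds run from lower left to upper right (r = 0.80 and r = 0.72).

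Further genes of the process were read from 6 lists, chosen with earlier results of these data known. Of 19 phosphate and pyrophosphate genes, 15 were tested. FIPs were higher than APCs for 5 and lower for 4 in transgenic mice, and higher for 4 and lower for 4 in controls. Medians were 0.14 and −0.00, against −0.01 and −0.06 over all genes. Of all genes, limma called 22.7% higher and 19% lower in transgenic mice, and 19.6% higher and 27.9% lower in controls. None of the 6 lists was tested as a whole. Phex was above 0 only in FIPs and Galnt3 only in APCs, so each entered the fit through that population alone. Smpd3, a sphingomyelinase whose loss in mice impairs bone mineralization, had 8.82 to 9.35 log2 CPM in FIPs and 6.77 to 7.15 in APCs of transgenic mice, and 8.67 to 9.14 in FIPs and 6.19 to 7.06 in APCs of controls. The difference was 2.11 in transgenic mice and 2.25 in controls (limma adjusted p = 6.11e-11 and 2.22e-11). Nt5e, the ecto-nucleotidase that frees phosphate from AMP, lay the other way (−1.82 in transgenic mice, −1.69 in controls), as did Enpp2, which makes lysophosphatidic acid (−0.83 and −0.74). Entpd1, which degrades extracellular ATP, was higher in FIPs (0.77 and 0.80), and so was the phosphate carrier Slc20a1 (0.32 and 0.43). The intestinal and germ-cell type phosphatases Alpi, Alppl2 and Akp3 were listed at 0 in every library, so Alpl was the alkaline phosphatase transcript measured here. Phospho1, a phosphatase of matrix vesicles, passed the filter but never exceeded 0.7 log2 CPM.

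Receptors of osteopontin went both ways. Of 9 tested, FIPs were higher for 5 and lower for 2 in transgenic mice (median 0.35), where limma called 41.7% of all genes, and higher for 6 and lower for 2 in controls (median 0.43), where it called 47.5%. The list as a whole was not tested. The integrin gene Itgb3 averaged 7.15 ± 0.09 log2 CPM in transgenic FIPs and 5.26 ± 0.21 in transgenic APCs, and 7.45 ± 0.14 in FIPs and 5.36 ± 0.22 in APCs of controls (differences 1.89 and 2.10, limma adjusted p = 3.22e-12 and 6.51e-13). Its partner Itgav was higher by 0.41 in transgenic mice and 0.52 in controls, and Itgb5 by 0.46 and 0.48. Itga8 was lower in FIPs (−1.54 and −1.71).

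Osteoclast regulators held the widest single difference of the lists. Tnfrsf11b, which encodes osteoprotegerin, the decoy receptor that blocks osteoclast formation, averaged 6.80 ± 0.25 log2 CPM in transgenic FIPs and 2.08 ± 0.30 in transgenic APCs, and 7.06 ± 0.08 in FIPs and 2.93 ± 0.51 in APCs of controls. The difference was 4.72 in transgenic mice and 4.13 in controls (26.3-fold and 17.6-fold; limma adjusted p = 2.31e-14 and 2.09e-13). Its ligand Tnfsf11 was above 0 in 4 libraries only and was not tested. Of the 3 tested genes of this list, FIPs were higher for 1 and lower for 1 (Il34, −0.35, limma adjusted p = 0.0394) in transgenic mice and higher for 2 in controls (Csf1, 0.13). The share called over all genes was 41.7% in transgenic mice and 47.5% in controls. Il34 lost its call without any 1 of 6 libraries, with adjusted p up to 0.116.

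Osteoblast and chondrocyte transcription factors were mixed. Of 12 tested, FIPs were higher for 5 and lower for 2 in transgenic mice and higher for 6 and lower for 1 in controls (median −0.05 and 0.08). Over all genes limma called 41.7% in transgenic mice and 47.5% in controls. Msx1, a homeobox factor of craniofacial bone, was higher by 0.74 in transgenic mice and 0.80 in controls, and Fosl2 by 0.32 and 0.30. Sox9, the chondrocyte factor, was lower in FIPs of transgenic mice (−0.55; −0.18 in controls, where it did not pass), and so was Atf4 (−0.19; −0.10 in controls, which did not pass). Sox6 was lower in controls (−1.27; −0.62 in transgenic mice, which did not pass). Whether these differences differed between genotypes was tested by the interaction, which called none of them. Dlx3 was listed at 0 in all 10 APC libraries and averaged 1.02 ± 0.60 log2 CPM in transgenic and 1.64 ± 0.63 in control FIPs. It entered the fit only through FIPs, so its place among the genes higher in FIPs is no finding. Dlx6 was listed at 0 throughout, Dlx5 was above 0 in 1 library and Msx2 in 2.

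Of the bone matrix genes, Col1a1, a collagen that fibroblasts also make, was abundant in every group. It averaged 10.53 ± 0.04 log2 CPM in transgenic and 10.57 ± 0.08 in control FIPs, and 10.50 ± 0.10 in transgenic and 10.49 ± 0.06 in control APCs. Of 10 tested, FIPs were higher for 2 and lower for 3 in transgenic mice and higher for 2 and lower for 2 in controls (median −0.01 and 0.06). The share of all genes called was 41.7% in transgenic mice and 47.5% in controls. Omd, a keratan sulfate proteoglycan of bone, was higher by 1.26 in transgenic mice and 0.88 in controls, and Postn by 0.44 and 0.46. Ifitm5, a membrane protein of osteoblasts, was lower in FIPs (−1.14 and −0.81) at levels under 2.2 log2 CPM, and its control value lost the call with 1 CPM added before the logarithm (−0.56) and with quantile normalization (−0.54). Dmp1, a protein of osteocytes, was listed at 0 in all 10 FIP libraries and averaged 0.78 ± 0.54 log2 CPM in transgenic and 0.46 ± 0.32 in control APCs, above 0 in 8 APC libraries. It entered the fit only through APCs. Thbs1 was lower by 0.30 in transgenic mice; its control value of −0.14 was called as deposited but was −0.08 with centred libraries and 0.0064 with quantile normalization, where it did not pass, and it lost the call without any 1 of 4 libraries.

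In the list of vitamin K dependent carboxylation, which activates Mgp, and of calcification inhibitors, 8 genes were tested. FIPs were higher for 3 and lower for 1 in each genotype (median 0.02 in transgenic mice and 0.06 in controls). Of all genes, limma called 41.7% in transgenic mice and 47.5% in controls. Fbn1, which encodes fibrillin, was higher by 0.40 in transgenic mice and 0.52 in controls, and Gas6, itself a Gla protein, was lower (−0.17 and −0.30). Vkorc1l1, a vitamin K reductase, was higher by 0.18 and 0.15, though the control value lost its call without any 1 of 6 libraries. Grem1, a secreted antagonist of bone morphogenetic proteins, was listed at 0 in all 10 APC libraries. It entered the fit only through FIPs, so its place among the 3 higher genes is no finding.

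Between genotypes, 1 of the 57 tested genes of the 6 lists passed in FIPs, where limma called 0.373% of all genes. Grem1 had 1.01 ± 0.47 log2 CPM in transgenic and 1.84 ± 0.28 in control libraries (−0.83, limma adjusted p = 0.0367). Its APC libraries, all listed at 0, added no spread to the fit, which shares 1 estimate of the spread over all groups. The call of Grem1 was kept in 2 of 10 fits that left out 1 library, with −0.98 to −0.72 over them. It was lost with 1 CPM added and in the fit of FIPs alone. In APCs 7 of 57 were called, where limma called 8.01% of all genes. Slc20a1, the phosphate carrier, averaged 5.95 ± 0.07 log2 CPM in transgenic and 5.70 ± 0.09 in control libraries (0.25, adjusted p = 0.0189), Sox9 averaged 6.66 ± 0.11 in transgenic and 6.26 ± 0.29 in control libraries (0.40, adjusted p = 0.0299) and Tnfrsf11b 2.08 ± 0.30 in transgenic and 2.93 ± 0.51 in control libraries (−0.84, adjusted p = 0.0172), all in limma. Atf4 (0.17), Fosl1 (0.36) and Itga9 (0.20) were higher as well and Sox6 (−0.94) lower. Fosl1 and Sox6 lost their calls with no filter on low values, and Sox6 also with quantile normalization (−0.80) and with the replicate block. In a fit of the APC libraries alone, none of the 7 passed and limma called 0 genes, with 3602 at an unadjusted p under 0.05. Without replicate 5 of the control APCs none of the 7 passed, and the fits without transgenic replicates 2, 3, 4 and 5 or control replicates 3 and 4 lost 6, 3, 5, 5, 5 and 4 of them; without transgenic replicate 1, control replicate 1 or control replicate 2 none was lost. Col1a1, Sparc and the other bone matrix genes gave 0 calls of 10 in either population, with 0 at an unadjusted p under 0.05 in both.

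**Figure D5:**
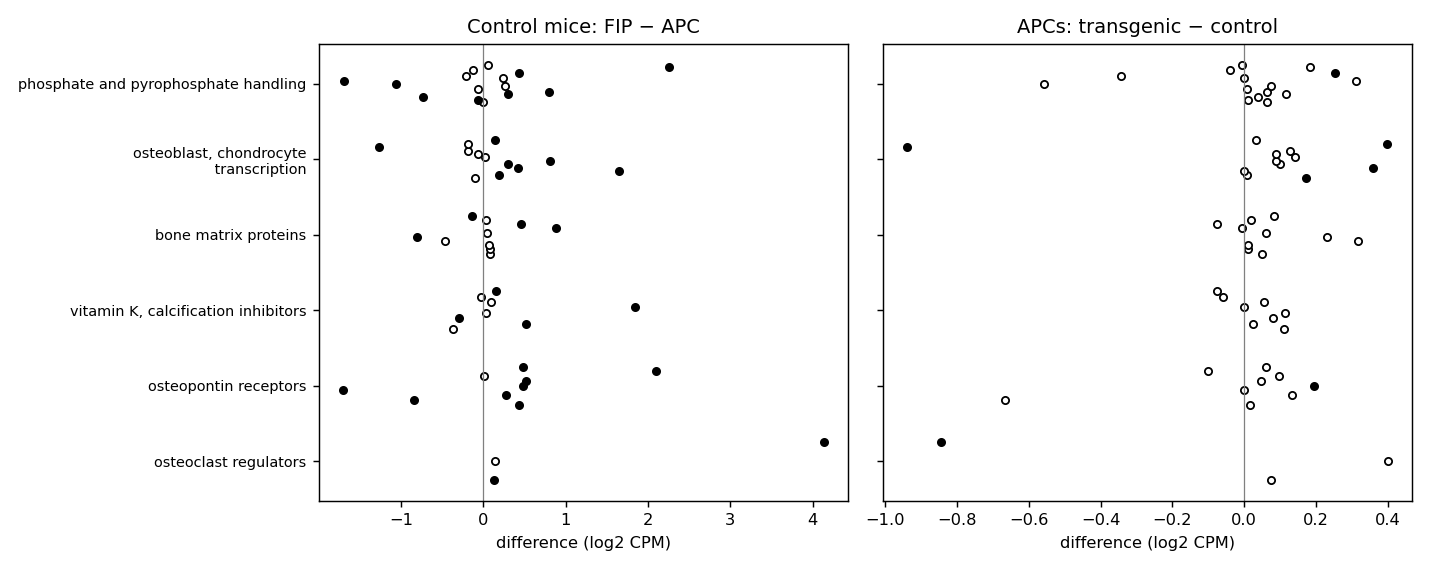
Difference in log2 CPM for each tested gene of the 6 lists, FIPs minus APCs in control mice (left) and transgenic minus control in APCs (right); filled points were called at an adjusted p of 0.05 in limma and the x axes differ. The point at 4.13 on the left and at −0.84 on the right is Tnfrsf11b.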

How the data were processed

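RNA of FIPs and APCs was measured in 20 libraries. Per the submitters' processing notes, the tools were Trim Galore 0.4.1, HISAT2 2.0.1, featureCounts 1.4.6 and DESeq2 1.6.3 and the build GRCm38 (mm10). The authors deposited log2 CPM to 2 decimals, with 1 CPM or less listed as 0. For the annotation release and the strand setting the sources used here give nothing. Between 72.0 and 80.7% of low values were whole reads within 0.0051 log2 units, so no count test was used.

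Genes above 0 in at least 5 libraries (17435) were fitted in limma 3.58.1 (R 4.3.3) on the deposited log2 values, with 1 mean per group, a variance trend and 16 residual degrees of freedom. P-values were Benjamini-Hochberg adjusted over all of these genes, with 0.05 as the threshold. The fit takes libraries as independent and was tested on simulated data. The genes and lists were chosen with earlier results of these data known. From each further list, up to 4 called genes per comparison are named, smallest adjusted p first. Others named (those at or near 0, Phospho1, Phex, Galnt3, Dmp1, Col1a1, Sparc, Mmp9, Csf3r, Tek, Gpnmb) were chosen after their values were seen. Loci and exon lengths are from GENCODE M21 (GRCm38), which matched 54276 of 54304 identifiers. Alternatives were 1 CPM added, no or a stricter filter, 2 further scalings, a fit of only the groups compared, a replicate block and each library left out.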

Additional observations from a re-analysis of the deposited data

Results flagged for a closer look

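The 7 detected genes were examined in each of 4 groups for a library far from the other 4, and 2 of 28 sets had one; chance gives about 1 in 20. Both were in Ank. Replicate 4 of the transgenic FIPs, at 6.07 log2 CPM, lay below the other 4 (6.21 to 6.26), and replicate 5 of the control FIPs, at 6.41, lay above its own group (6.08 to 6.17). Without transgenic replicate 4, Ank was 0.16 log2 units higher in FIPs than in APCs of transgenic mice and passed in limma (adjusted p = 0.0313).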

How the results depend on the processing

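Of 658 values of the 7 detected genes under other settings, 652 counted as unchanged. Those of the 5 tested genes kept their side of the threshold, and those of Alpl and Spp1 moved by less than the spread. For the 5 genes, a change of sign counted as a reversal only where a value passed, and 0 values reversed. Values that did not pass could change sign, as the Mgp interaction did (0.02 as deposited, −0.096 with centred libraries). Another 5 newly passed (Runx2 and Ank between FIPs and APCs). The last 1 moved (the larger genotype difference of Alpl in FIPs, 0.07 with centred libraries). Ank in transgenic mice newly passed without APC replicate 4 (adjusted p = 0.0496). Alpl stayed at 0.62 to 0.64 in FIPs and 0.45 to 0.55 in APCs over all settings other than leaving out libraries. With 1 library left out, genotype differences of Alpl ranged from 0.59 to 0.67 in FIPs and from 0.41 to 0.51 in APCs, and that of Spp1 in APCs from −1.26 to −0.93. The called genes of the 5 numbered 3 to 4 between FIPs and APCs of transgenic mice and 2 to 3 in controls with 1 library left out, and 0 for both genotype comparisons and the interaction. Of 880 values of the genes named from the further lists, 803 kept direction and side, 76 lost the threshold and 1 reversed, Thbs1 in controls (0.0064 with quantile normalization).

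Counts over all genes moved more. Between genotypes in APCs, 1396 genes became 812 without a filter, 2199 with centred libraries and 0 in the fit of APCs alone. In FIPs, 65 became 101 with the replicate block and 36 in the fit of FIPs alone. The interaction count of 0 became 3 with 1 CPM added and 1 with quantile normalization. With 1 library left out, the counts ranged from 181 (control replicate 5) to 2849 (transgenic replicate 1) in APCs, from 9 (transgenic replicate 4) to 125 (transgenic replicate 5) in FIPs, and from 0 to 331 (transgenic APC replicate 1) for the interaction. In APCs the count also moved by over 1.5 times without transgenic replicates 2 (268), 3 (559), 4 (470) and 5 (191) and control replicates 1 (2471), 3 (376) and 4 (603). In FIPs it did so without transgenic replicates 1 (18) and 3 (35) and control replicates 2 (35), 3 (35), 4 (14) and 5 (27). Between FIPs and APCs the counts were 6682 to 7125 in transgenic mice and 7599 to 8246 in controls. Centring changed the share of higher calls to 62.6% from 26.2% in the genotype comparison of APCs, to 51.9% from 64.6% in that of FIPs, to 43.8% from 54.5% between populations of transgenic mice and to 52.8% from 41.3% in controls. Quantile normalization gave 46.3% in APCs and 53.6% in FIPs for the genotype comparisons. Centring moved the median interaction over all genes to −0.06 from 0.05. The causes of these shifts were not tested.

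Same-numbered FIP and APC libraries deviated together with r = 0.06 to 0.33 in transgenic mice and 0.04 to 0.27 in controls. These were positive in all pairs but not above 0.1 in each, so the numbers were not taken as pairs. A shared source of mice is not shown absent. Across genotypes, which share no mice, r was −0.11 to 0.07 for transgenic FIPs with control APCs. It was −0.10 to 0.05 for control FIPs with transgenic APCs. Between genotypes of the same population r was −0.01 to 0.11 in FIPs and −0.32 to 0.15 in APCs. A pairing within each genotype was not fitted, so the p-values between FIPs and APCs leave out any such pairing. Among the 5 genes the replicate block, which spans both genotypes and is no pairing by mouse, changed the call of Runx2 between FIPs and APCs of controls. Depth limits what can be said of genes below 1 CPM.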
